A study of Mus musculus with 8 samples.

Results

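Ngfr, Chat, Slc18a3, Mapt, Tyro3 and Plxnb1, which are best known from neurons, are 6 of 21887 protein-coding genes. They were picked because a wide H2A.Z peak of control testes lies within 1 kb of an end of the gene span, and no peak of Znhit1-CKO testes does. A gene meeting both conditions is called lost below. They were thus chosen by the position and width of peaks in the 2 lists that are compared here, so absence of a Znhit1-CKO gene-end peak is the selection and not a finding. The values below describe the loci, and no test was made.

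The material is H2A.Z ChIP-seq (chromatin immunoprecipitation and sequencing) of mouse testis cells at postnatal day 14, with 2 biological replicates in each of 4 groups: Znhit1-CKO immunoprecipitates and Znhit1-CKO inputs, control immunoprecipitates and control inputs. The Znhit1-CKO testes are conditional knockouts of Znhit1, which the labels' protocol calls Znhit1-sKO. For the strain, the alleles, the Cre driver and the genotype of the controls, the sources used here give nothing. The comparison rests on a list of peaks for each genotype and on a list of regions that the authors called differential. Each peak list is attached to a replicate 1 sample, and nothing says whether replicates were pooled, so each may rest on 1 replicate. These lists hold positions only, with no height, no read count and no direction, so no value below carries a replicate error.

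H2A.Z is a variant of histone H2A that is typically found in the nucleosomes beside active or poised promoters. ZNHIT1 is a subunit of the SRCAP complex, which exchanges H2A for H2A.Z. The 6 genes cover several neuronal roles. Ngfr encodes the p75 neurotrophin receptor. Chat encodes choline acetyltransferase, which makes acetylcholine, and Slc18a3 the transporter that loads acetylcholine into synaptic vesicles. Mapt encodes tau, which binds axonal microtubules. Tyro3 encodes a receptor tyrosine kinase of the TAM family, which in testis acts in Sertoli cells in the clearance of dying germ cells. Plxnb1 encodes plexin-B1, a receptor for the guidance cue semaphorin 4D.

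In the whole series, Znhit1-CKO testes had 31156 peaks covering 25.2 Mb and control testes 48752 peaks covering 43.5 Mb, so the Znhit1-CKO length was 58.0% of the control length. The targeted gene kept a peak, 1422 bp wide in Znhit1-CKO and 2003 bp in control testes, which does not check its deletion. Peaks do not measure expression and so cannot check the tissue label. A control gene-end peak, which 67.7% of all protein-coding genes had, was present at 12 of 12 germ cell markers, 7 of 9 Sertoli cell markers, 5 of 9 Leydig and peritubular cell markers and 9 of 11 Schwann cell and nerve markers. Of these, 4, 2, 2 and 2 had lost it in Znhit1-CKO testes, against 11.5% of all genes with such a peak. In whole testis, fewer cells of a type and less H2A.Z per cell cannot be told apart.

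The promoters show where transcription starts relative to each wide peak. RefSeq (GRCm38.p6) gives a promoter window for 5 of the 6 genes, from 250 bases before the start to 50 after it. They are printed 5′ to 3′ on the gene's own strand, and capitals mark GC boxes, that is the letters GGGCGG or their reverse complement CCGCCC. The first pair are the promoters of Ngfr (chr11:95587649-95587948, minus strand) and Slc18a3 (chr14:32464801-32465100, minus strand), shown because the peak over their starts had no counterpart in Znhit1-CKO testes.
Ngfr: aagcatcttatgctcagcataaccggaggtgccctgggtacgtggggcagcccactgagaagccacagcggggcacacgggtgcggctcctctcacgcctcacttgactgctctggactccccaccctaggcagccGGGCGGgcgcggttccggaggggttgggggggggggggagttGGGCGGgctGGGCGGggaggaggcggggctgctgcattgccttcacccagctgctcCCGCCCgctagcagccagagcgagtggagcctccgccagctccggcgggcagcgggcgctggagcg
Slc18a3: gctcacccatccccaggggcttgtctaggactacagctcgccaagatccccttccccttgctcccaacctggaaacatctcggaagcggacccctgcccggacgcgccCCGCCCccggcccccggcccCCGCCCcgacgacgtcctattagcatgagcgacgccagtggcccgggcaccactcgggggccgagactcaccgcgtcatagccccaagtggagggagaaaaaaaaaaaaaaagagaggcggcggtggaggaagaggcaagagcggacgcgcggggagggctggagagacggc
Next are Tyro3 (chr2:119799264-119799563, plus strand) and Plxnb1 (chr9:109095186-109095485, plus strand), shown because a Znhit1-CKO peak covers the whole window.
Tyro3: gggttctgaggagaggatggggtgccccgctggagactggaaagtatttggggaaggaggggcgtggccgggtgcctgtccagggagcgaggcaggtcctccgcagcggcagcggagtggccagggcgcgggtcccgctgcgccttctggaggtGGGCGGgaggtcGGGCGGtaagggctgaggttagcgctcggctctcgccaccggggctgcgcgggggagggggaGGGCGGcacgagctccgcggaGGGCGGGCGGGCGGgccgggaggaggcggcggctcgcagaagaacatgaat
Plxnb1: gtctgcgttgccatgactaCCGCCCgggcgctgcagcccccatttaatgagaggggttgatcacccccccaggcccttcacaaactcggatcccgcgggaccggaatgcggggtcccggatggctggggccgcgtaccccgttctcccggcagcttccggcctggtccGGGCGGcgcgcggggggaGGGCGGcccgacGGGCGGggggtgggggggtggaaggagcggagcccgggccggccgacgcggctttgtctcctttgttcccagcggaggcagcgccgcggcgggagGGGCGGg
Last is Chat (chr14:32465860-32466159, minus strand), shown because no peak of either genotype reaches it.
Chat: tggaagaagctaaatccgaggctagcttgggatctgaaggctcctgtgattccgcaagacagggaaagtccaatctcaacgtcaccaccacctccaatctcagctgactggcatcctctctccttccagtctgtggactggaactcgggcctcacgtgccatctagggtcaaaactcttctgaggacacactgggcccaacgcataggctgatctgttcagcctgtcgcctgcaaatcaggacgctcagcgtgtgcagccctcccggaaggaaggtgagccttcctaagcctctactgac

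The 4 promoter windows that a control peak reaches had more CG dinucleotides than the median promoter window. Plxnb1 had 36 CG dinucleotides and a GC content of 74.7%, Tyro3 31 and 73.3%, Slc18a3 27 and 67.0%, and Ngfr 23 and 71.7%. The Chat window had 10 and 55.7%. Over all 32851 promoter windows of the table, with or without a peak, the median was 7 CG dinucleotides (25th to 75th percentile 3 to 20) and a GC content of 52.7%. These windows were not limited to protein-coding genes, of which 17492 have an entry. The shares of windows in this paragraph therefore do not set the 5 genes against protein-coding promoters alone. At least as many CG dinucleotides as at Plxnb1 were in 6.23% of these windows, as at Tyro3 in 10.6%, as at Slc18a3 in 15.5% and as at Ngfr in 21.5%. Tyro3 held 6 GC boxes, some of them overlapping, Plxnb1 5, Ngfr 4 and Slc18a3 2, while Chat held none. A GC box on either strand was present in 35.7% of all windows. At least as many as at Tyro3 were in 1.35%, as at Plxnb1 in 2.71%, as at Ngfr in 5.49% and as at Slc18a3 in 19.5%. The E-box letters CACGTG occurred once at Chat and at none of the other 4, against 7.15% of all windows. The letters TGACGTCA (the cyclic AMP response element, in 1.79% of windows) and TTCAGCACC, the first part of the motif of the neuronal gene repressor REST (in 0.371%), were in none of the 5 windows. The second part of the REST motif, found in 0.137% of all windows, was in none of them either. The windows covered by a Znhit1-CKO peak therefore had more CG dinucleotides than the uncovered ones, a description of 5 windows only.

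All 6 genes are lost at a gene end, by choice, where 11.5% of the 14815 protein-coding genes with a control gene-end peak are. Their wide control peaks number 5, since Chat and Slc18a3 share 1, and lie on 4 chromosomes. The rule did not bear on the bases of the wide peak more than 1 kb from a gene end. These are 412 bp of the peak shared by Chat and Slc18a3, 1538 bp at Ngfr, 1860 bp at Tyro3, 2050 bp at Plxnb1 and 2417 bp at Mapt. The genes fell into 2 kinds. At Ngfr, Chat and Slc18a3 no Znhit1-CKO peak overlapped the wide control peak by even 1 bp, which the rule had nearly fixed for Chat and Slc18a3. This state was found at 11.7% of all genes with a control gene-end peak and at 0.912% of those with one of at least 2543 bp, shares given as background only. At Mapt, Tyro3 and Plxnb1 a Znhit1-CKO peak lay inside it, but more than 1 kb from the end of the gene span. The label of lost wide peaks therefore holds for 3 of the 6 genes and 2 of the 5 peaks.

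**Figure D1:**
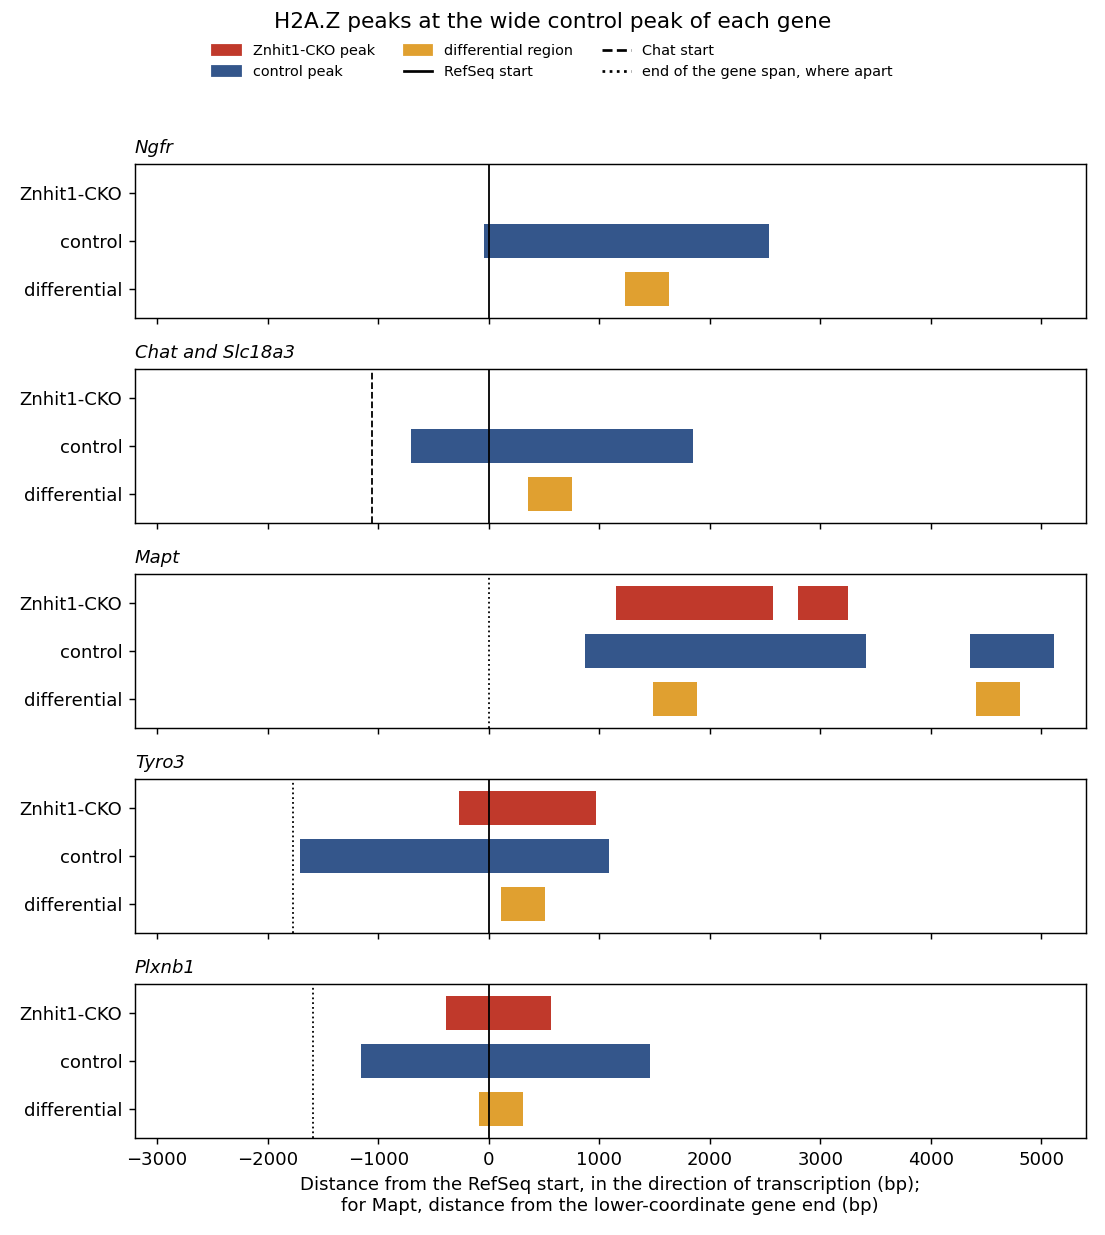
Peaks of Znhit1-CKO testes (red), peaks of control testes (blue) and the authors' differential regions (yellow) around the wide control peak of each gene. The x axis is the distance in bp from the RefSeq start in the direction of transcription, or from the lower-coordinate gene end for Mapt. The Znhit1-CKO row is empty at Ngfr and at Chat and Slc18a3, and holds 2 peaks at Mapt and 1 each at Tyro3 and Plxnb1, all inside the control peak.

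Ngfr had no peak at its start in Znhit1-CKO testes, against a control peak of 2578 bp (chr11:95585160-95587737). The control peak began 39 bp upstream of the RefSeq start and ended 2538 bp downstream, so nearly all of it lay on the transcribed side. It covered 89 of the 300 bases of the promoter window printed above. The nearest Znhit1-CKO peak was 7035 bp away, inside the gene. That second site, 9573 to 9761 bp downstream of the start, was a peak of 189 bp in Znhit1-CKO testes and of 755 bp in control testes. The narrow Znhit1-CKO peak lay wholly inside the control one. Each of the 2 control peaks of Ngfr held 1 differential region of 400 bp.

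Chat and Slc18a3 form 1 locus. Slc18a3 lies inside the Chat span, and its start is 1059 bp downstream of the Chat start on the same strand. Neither gene had any Znhit1-CKO peak from 10 kb before to 10 kb after its span, whereas control testes had exactly 1 peak there, of 2553 bp (chr14:32463002-32465554). This peak ran from 704 bp upstream to 1848 bp downstream of the Slc18a3 start, and all 300 bases of the Slc18a3 promoter window lay in it. It began 355 bp downstream of the Chat start and touched none of the Chat promoter window. By position it was thus a peak over the Slc18a3 start, counted for Chat because it came within 1 kb of that gene's end. The nearest Znhit1-CKO peak was 17197 bp away. One differential region of 400 bp lay 356 to 755 bp downstream of the Slc18a3 start, near the middle of the control peak.

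Tyro3 kept a peak over its start. It was 1244 bp wide in Znhit1-CKO testes and reached from 269 bp upstream to 974 bp downstream of the RefSeq start. In control testes the peak was 2796 bp wide (chr2:119797805-119800600) and reached from 1709 bp upstream to 1086 bp downstream. The Znhit1-CKO peak covered 44.5% of the control peak. Of the uncovered part, 1440 bp lay on the upstream side and 112 bp on the downstream side. Of the upstream part, 936 bp lay within 1 kb of the gene end, where the rule allowed no Znhit1-CKO peak. Tyro3 met the rule because its annotated span begins 1774 bp upstream of this start, and the Znhit1-CKO peak was 1505 bp from that end. A second peak in the window, over the end of the neighbouring gene Rpap1 (named after its values were seen), was 1437 bp wide in Znhit1-CKO and 1526 bp in control testes.

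Plxnb1 was trimmed on both sides of its start. The Znhit1-CKO peak was 953 bp wide and reached from 390 bp upstream to 562 bp downstream of the RefSeq start. The control peak was 2621 bp wide (chr9:109094279-109096899) and reached from 1157 bp upstream to 1463 bp downstream. The Znhit1-CKO peak covered 36.4% of the control one and left 767 bp uncovered upstream and 901 bp downstream. Of the upstream part, 571 bp lay within 1 kb of the gene end, where the rule allowed no Znhit1-CKO peak. Here too the span begins upstream of the start, by 1587 bp, and the Znhit1-CKO peak was 1197 bp from that end. The lncRNA gene Gm7628 has an end near the same position, 437 bp from the control peak. The end of the upstream gene Ccdc51 lay 916 bp from it, so this same peak is 1 of the 2 control gene-end peaks of Ccdc51. Ccdc51 was not called lost, because it had 1 Znhit1-CKO gene-end peak at its other end, outside the Plxnb1 window.

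Mapt had the largest remnant of the 5 wide peaks. In Znhit1-CKO testes 2 peaks of 1416 and 452 bp lay on the control peak of 2543 bp (chr11:104230284-104232826) and covered 73.5% of it. The uncovered parts were 281 bp at the side of the gene end, 225 bp between the 2 peaks and 169 bp at the far side. Of the 281 bp, 126 bp lay within 1 kb of the gene end, where the rule allowed no Znhit1-CKO peak. The first Znhit1-CKO peak was 1156 bp from the gene end and the control peak 875 bp, so a limit of 1 kb falls between positions 281 bp apart.

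Mapt also had the most peaks inside the gene. Besides the wide peak, control testes had 7 peaks of 328 to 798 bp within the 102682 bp of the gene, and 3 of these had a Znhit1-CKO peak on them. Those 3 Znhit1-CKO peaks were 476, 409 and 665 bp wide, against 774, 402 and 725 bp in control testes. The other 4 control peaks, of 767, 715, 328 and 798 bp, had no Znhit1-CKO peak. The absent sites lay 4351, 57639, 66209 and 69116 bp from the lower-coordinate end, between sites that were present in both genotypes. Of the 5 differential regions at Mapt, 3 lay on control peaks with no Znhit1-CKO peak. Near the other end of Mapt lies Kansl1, whose protein belongs to a histone acetyltransferase complex. Kansl1 was not lost, with 1 gene-end peak in each genotype, but these lay at its far end, outside the Mapt window.

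**Figure D2:**
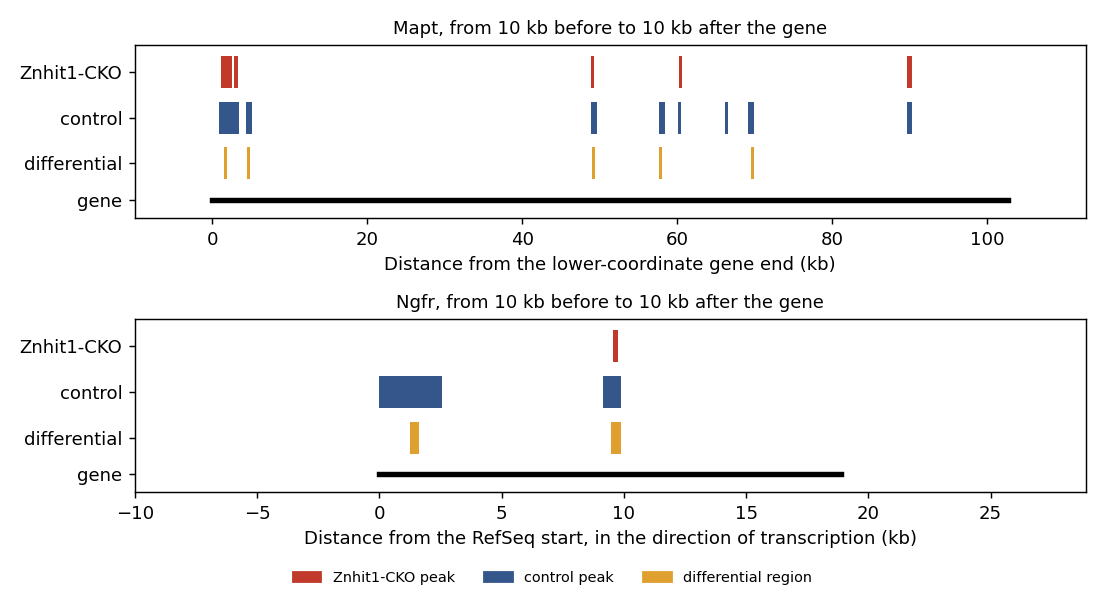
The complete windows of Mapt and Ngfr, from 10 kb before to 10 kb after the gene (black bar), with Znhit1-CKO peaks (red), control peaks (blue) and differential regions (yellow) against distance in kb. Along Mapt 5 Znhit1-CKO peaks stand against 8 control peaks, and along Ngfr 1 stands against 2.

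Counted over all 6 windows, with the shared locus counted once, there were 9 Znhit1-CKO peaks and 14 control peaks. All 9 Znhit1-CKO peaks lay on a control peak, and 6 of the 14 control peaks had no Znhit1-CKO peak. Median width was 665 bp in Znhit1-CKO and 786 bp in control testes. The covered length was 6381 bp in Znhit1-CKO and 18960 bp in control testes, or 33.7%. Gene by gene the Znhit1-CKO length was 0% of the control length at Chat and at Slc18a3, 5.67% at Ngfr, 36.4% at Plxnb1, 48.5% at Mapt and 53.5% at Tyro3. Over the same windows of 17414 protein-coding genes with any control peak the median was 72.4%. At Tyro3, the highest of the 6, 28.6% of those windows had as low a value or lower, and at Ngfr 8.83%. A value of 0%, as at Chat and Slc18a3, was found in 8.76% of those windows. The windows of the 6 genes hold the wide peaks picked for lacking a Znhit1-CKO gene-end peak, so the selection itself lowers their values. They are given as description and are not read against that median.

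Each of the 5 wide control peaks held 1 differential region, where 64.2% of 573 control peaks at least as wide as the narrowest of them (2543 bp) held any. A region within 1 kb of a gene end was present at Slc18a3 alone, 1 of the 6 genes, where 62.8% of all genes with a control gene-end peak had one. The regions do not tell the 2 kinds of locus apart. At Ngfr and at Slc18a3 the region lay where Znhit1-CKO testes had no peak. At Mapt, Tyro3 and Plxnb1 all 400 bp of the region lay inside the remaining Znhit1-CKO peak. Over the 6 windows 11 differential regions were found, all on control peaks and 6 of them also on a Znhit1-CKO peak. The authors' list states no direction for any of them.

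Among wide peaks in general, complete absence was uncommon. Of the same 573 control peaks, which are 1.18% of all control peaks, 8 (1.4%) had no Znhit1-CKO peak on them, and 2 of those 8 are the peaks of Ngfr and of Chat and Slc18a3. Exactly 1 Znhit1-CKO peak lay on 328 (57.2%), as at Tyro3 and Plxnb1, and 2 or more on 237 (41.4%), as at Mapt. The median part covered by Znhit1-CKO peaks was 79.8% (25th to 75th percentile 66.2 to 89.1%). At Plxnb1, 30 of the 573 (5.24%) were covered as little or less, at Tyro3 42 (7.33%) and at Mapt 214 (37.3%). The Mapt peak thus lies within the middle range of wide peaks, while the other 4 lie below the 25th percentile, and the selection for loss bears on all 5.

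**Figure D3:**
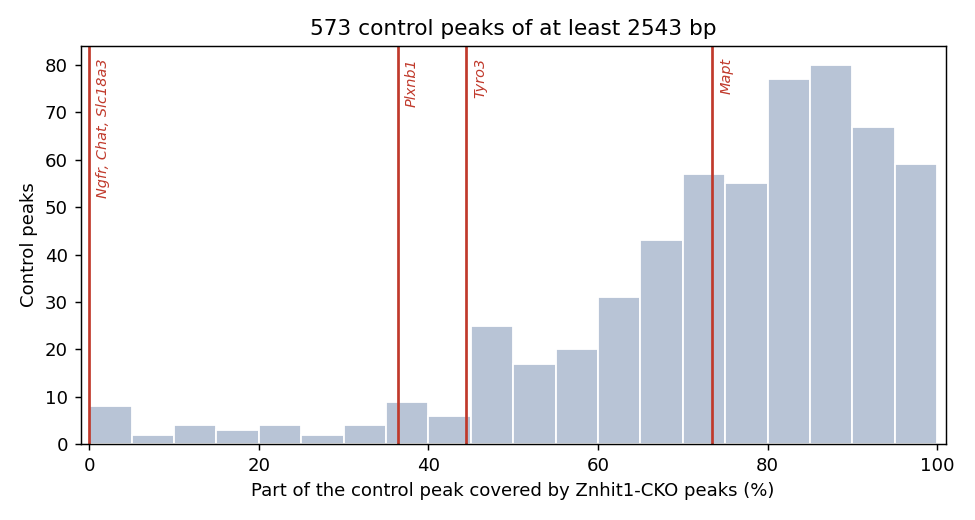
Histogram of the part of each control peak covered by Znhit1-CKO peaks (%), for the 573 control peaks of at least 2543 bp, with the y axis counting peaks. Red lines mark the peaks of the 6 genes, at 0% for Ngfr, Chat and Slc18a3, 36.4% for Plxnb1, 44.5% for Tyro3 and 73.5% for Mapt.

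For Ngfr, Chat and Slc18a3 the RefSeq start is itself an end of the gene span, so loss there is the selection again, and what the start adds concerns Tyro3 and Plxnb1. Within 1 kb of the RefSeq start, Ngfr, Chat and Slc18a3 had a control peak and no Znhit1-CKO peak, whereas Tyro3 and Plxnb1 had 1 peak in each genotype. The count of 3 lost at the start is therefore not read against the background, which was 9.68% of 11844 genes with a control peak at the start, and 1.15% of those whose peak is at least 2543 bp wide. Of 17492 protein-coding genes with a promoter entry, 1708 (9.76%) have, like Tyro3 and Plxnb1, a start more than 1 kb from both ends of the span. Of 1333 genes called lost at gene ends that have a promoter entry, 178 (13.4%) had a Znhit1-CKO peak within 1 kb of the start. Among the 10 lost genes with a control peak of at least 2543 bp and an entry, 3 did, namely Tyro3, Plxnb1 and Ccdc85c.

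The 6 belong to the 10 lost genes that rank highest in control peak width, predicted genes left out. Just above them stood Nanos2 (2924 bp), a gene of spermatogonial stem cells, with 66.2% of its control peak covered by a Znhit1-CKO peak. Ccdc85c (2561 bp, 84.7% covered) stood between Ngfr and Chat. Just below Mapt came Pgr, the progesterone receptor gene (2487 bp, 75.8% covered, with a Znhit1-CKO peak at its start). Lost genes with so wide a control peak are few, 11 of the 548 genes with a gene-end peak of at least 2543 bp (2.01%).

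Genes that work with the 6 were examined in 5 lists, with the 6 genes left out. In all, 70 genes of the lists had a control gene-end peak and 13 had lost it (18.6%, against 11.5% of all genes). Each list holds only 6 to 20 such genes, so the counts per list below stand beside the same 11.5% and are not read as results about a family. In control testes the median of the 13 lost peaks was 877 bp and the widest was 2202 bp, so none was as wide as those of the 6 genes. Only 1 of the 70 list genes had a control peak as wide, and it was kept, so this does not set the 6 apart. On 10 of the 13 no Znhit1-CKO peak overlapped the control peak, against 93.2% of all 1711 lost genes. A differential region at a gene end was present at 8 of the 13, against 58.6% of all lost genes.

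In the list of neurotrophins, their receptors and associated genes, drawn up around Ngfr, 4 of 10 genes were lost. They include Ntf3, which encodes neurotrophin-3, and Bex3, with narrow control peaks of 250 and 227 bp. Ntrk2, the receptor of brain-derived neurotrophic factor, was kept, with 2 Znhit1-CKO peaks of at most 840 bp on a control peak of 2395 bp.

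Among genes of cholinergic transmission, 4 of 15 were lost. The list is mostly receptors and receptor subunits, of which 12 had a control gene-end peak and 8 were not called lost. Among these 8, Chrm1 had no Znhit1-CKO peak on its control peak of 375 bp. Chrm3, a muscarinic receptor gene, had a Znhit1-CKO peak of 384 bp on a control peak of 1949 bp, and this peak lay within 1 kb of its start. Chrna1, a nicotinic receptor subunit gene, had a Znhit1-CKO peak of 750 bp on a control peak of 1122 bp, but none within 1 kb of its start. Chrm5 (control peak 1073 bp) and Chrnb2 (524 bp) had none. Of the kept receptor genes, Chrm4 had 2 Znhit1-CKO peaks of at most 436 bp on a control peak of 2451 bp, and Chrna7 had 1 of 1262 bp on 1666 bp. Ache, which encodes the enzyme that breaks acetylcholine down, was kept at 1240 bp in Znhit1-CKO against 1774 bp in control testes. Slc5a7, the choline uptake transporter gene, was kept at 893 bp in Znhit1-CKO against 785 bp in control testes. The choline transporter thus had a peak in both genotypes where Chat and Slc18a3 had one only in control testes.

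Among microtubule-associated and axonal proteins, the list of Mapt, 4 of 20 genes were lost. They were Ina, an intermediate filament gene of neurons (control peak 1312 bp), Tubb3, a neuronal tubulin gene (698 bp), Gap43, a growth cone gene (595 bp), and Stmn3, a stathmin gene (439 bp). None of the 4 had a Znhit1-CKO peak on the control peak. Among the kept genes, Map2 had a peak of 862 bp in Znhit1-CKO against 1129 bp in control testes, Map1a 1358 against 1582 bp, and Map1b 1307 against 1574 bp.

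Among the TAM receptors and their ligands, 1 of 6 was lost. Axl, a paralogue of Tyro3, had 2 Znhit1-CKO peaks of at most 383 bp on a control peak of 2202 bp, which they covered to 31.8%, and none within 1 kb of its start. Mertk, the third receptor of the family, was kept at 1318 bp in Znhit1-CKO against 1952 bp in control testes. The ligand genes Gas6 and Pros1 were kept too, at 969 and 1476 bp in Znhit1-CKO against 1468 and 1984 bp in control testes. Tulp1 and Lgals3, the other listed ligand genes, were kept with narrower peaks. Tulp1 had 713 bp in Znhit1-CKO against 2312 bp in control testes, with 30.8% of the control peak covered, and Lgals3 had 455 bp in Znhit1-CKO against 1196 bp in control testes. Neither Axl nor Tulp1 had a Znhit1-CKO peak within 1 kb of its start, so 2 of the 6 were lost by that measure.

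Among plexins, neuropilins and class 4 semaphorins, none of 19 genes was lost. Plxnb2, the closest listed relative of Plxnb1, had a peak of 1210 bp in Znhit1-CKO against 1331 bp in control testes. Plxnc1 had 1951 bp in Znhit1-CKO against 2312 bp in control testes. Sema4d, the ligand gene of plexin-B1, had 969 bp in Znhit1-CKO against 995 bp in control testes. No Znhit1-CKO peak lay within 1 kb of the RefSeq start of Sema4d.

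**Figure D4:**
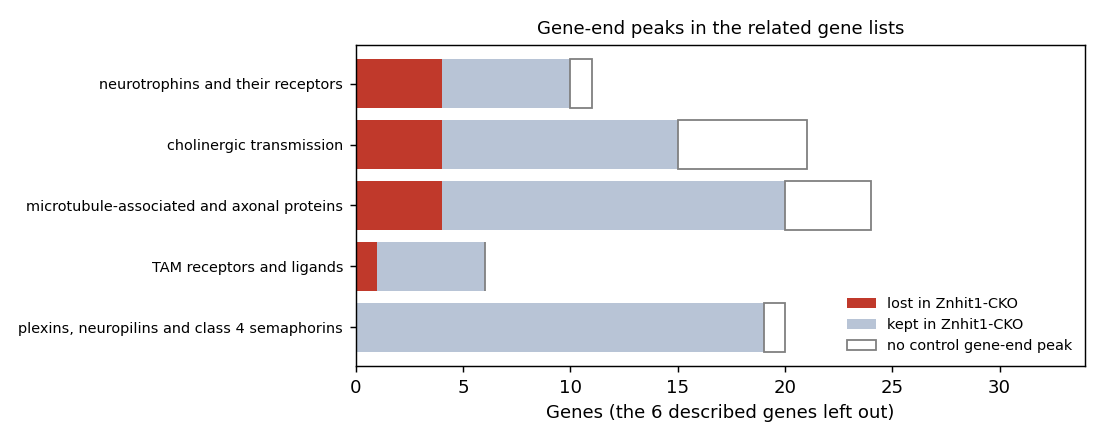
Genes of the 5 related lists (number of genes on the x axis, the 6 described genes left out), divided into those whose control gene-end peak was lost in Znhit1-CKO testes (red), kept (grey-blue) or absent from control testes (white). Losses number 4, 4, 4, 1 and 0 from top to bottom.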

How the data were processed

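Per the submitters' processing notes the build was mm10 and the tools MACS2 2.2.4, BWA 0.7.17, cutadapt 2.5, Picard 2.20.7 and SAMtools 1.9. Of what the authors deposited, 3 lists were used, and each holds positions only: Znhit1-CKO peaks, control peaks and differential regions, which the list's name credits to edgeR. Of thresholds, pooling of replicates and depth per library, the sources used here say nothing. Of 24367 differential regions, 24362 are exactly 400 bp long and the longest is 793 bp.

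Genes came from RefSeq GRCm38.p6, whose coordinates are those of mm10, with mitochondrial genes left out. The gene table gives no strand, and starts were taken from the promoter table. Overlap means at least 1 bp, covered length counts the bases inside a window only, and positions count from 1. The peak overlap count was checked against bedtools 2.31.1, and calls of loss were tested on simulated data. Python 3.11.15, pandas 2.3.3 and numpy 2.4.6 were used. The members and lists were chosen with earlier results of these data known. Genes were named as the 6 members, their neighbours in the windows, the lost list genes (up to 6 per list) and the neighbours in width. Kept list genes, Rpap1 and Ccdc85c were chosen after their values were seen. Of the list symbols, Ngfrap1 was not found in the table. Some genes of the neurotrophin list are counted but not reported here by name.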

Additional observations from a re-analysis of the deposited data

How the results depend on the processing

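The count of 6 lost genes was 3 with a window of 2000 bp at gene ends, 3 where no Znhit1-CKO peak was allowed to overlap the wide control peak, and 3 at the RefSeq start, an alternative chosen after seeing the data. The 3 were Ngfr, Chat and Slc18a3 each time, whose starts are ends of the gene span. It was 5 with a window of 500 bp, where Mapt has no control peak, 5 where under 50% of the control peak was to be covered, and 6 among peaks of at least 500 bp. Covered length in the joined windows, 33.7% of control, was 31.6% with flanks of 5 kb, 44.8% with 20 kb and 26.6% among peaks of at least 500 bp. The share of genes with a wide control gene-end peak that were lost, 2.01%, was 0.912% where no overlap was allowed, and 1.15 to 1.68% under the other 3 alternatives. The count of 13 lost list genes lay between 10 and 15. No paired analysis was possible because each genotype has 1 peak list here, whether from 1 replicate or pooled, and no replicate could be left out either. A stricter peak threshold was not run, since the lists hold no fold, p or q. Depth is unknown, so a site near the threshold can leave a list with little change in signal.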
